A study of Mus musculus with 5 samples.

Results

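The 184 genes described here are the variable and constant segments of the T cell receptor, all genes in the deposited matrices whose symbol starts with a receptor locus and V or C, or with Tcrg, among 31053 genes in all. They comprise 128 alpha, 35 beta, 7 gamma and 6 delta variable segments and 8 constant segments (Trac, Trbc1, Trbc2, Trdc and Tcrg-C1 to Tcrg-C4). Their use was measured in lymphocyte-like cells that held at least 1 UMI (unique molecular identifier, a count of captured mRNA molecules) of Cd3d, Cd3e or Cd3g, the invariant chains that carry the receptor to the cell surface. There were 700 such CD3-positive cells, and 458 lymphocyte-like cells without a CD3 UMI served as their comparison. In the CD3-positive cells 91 of the 184 segments were detected, 41 of them with at least 10 UMIs, and 93 had no UMI. The segments gave 4347 UMIs there, of which 56.5% came from constant and 43.5% from variable segments.

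The cells were dissociated from ventral skin, taken from C57BL/6J mice on postnatal day 28, and profiled with droplet-based 3' single-cell RNA sequencing (10x v2). There were 3 libraries from Prx1Cre+Ikkbf/f mice (Ikkb_cKO) and 2 from wild-type mice (WT), and every library pooled the cells of 2 mice. Prx1Cre, driven by an enhancer of the mesenchymal homeobox gene Prrx1, acts in cells that use or once used that enhancer and deletes floxed alleles of the gene for IKKβ, the kinase that activates NF-kB. The title of the series places its question in Prx1-lineage fibroblasts and atopic dermatitis. Prrx1 had 1, 0 and 1 UMI in CD3-positive cells of Ikkb_cKO libraries 1, 2 and 3, and none in those of the WT libraries. The WT mice are described as wild type, with no separate Cre-only or floxed-only controls among the samples used.

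Each T cell receptor is a pair of chains, alpha with beta or gamma with delta. A chain is encoded by 1 variable segment joined, through a short joining segment, to a constant segment. Beta and delta chains also use short diversity segments. The choice of variable segment is made by recombination in the thymus. Mouse skin is known for gamma-delta T cells with few receptor types: the dendritic epidermal T cells, which pair the gamma segment V5 with the delta chain made from Trdv4, and dermal cells that use gamma V4 or V6. Innate lymphoid cells and natural killer cells lack a rearranged surface receptor, although constant segment transcripts can be made without a complete rearrangement.

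Segments within a locus can be so alike that a short read cannot tell them apart, and the constant segments whose counts are set side by side here differ in how far this holds. The sequences below are the coding strand from the GENCODE M21 transcripts on GRCm38, 5′ to 3′. The first pair shows the single base, in capitals, at which the 375-base first coding exons of Trbc1 and Trbc2 differ. They lie at chr6:41538458-41538517 and chr6:41546970-41547029, both on the plus strand.
Trbc1: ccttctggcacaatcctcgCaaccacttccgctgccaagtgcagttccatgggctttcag
Trbc2: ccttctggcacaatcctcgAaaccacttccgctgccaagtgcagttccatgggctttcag

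Over the whole coding sequence of 518 bases the beta constant segments differed at 23 positions. The bases after the annotated coding sequence, 219 in Trbc1 and 174 in Trbc2, shared no 20-base word, and 3' tags fall largely towards that end. Of the 50-base windows in the last 500 bases, 16.2% of those of Trbc1 and 20.2% of those of Trbc2 also occurred in the other gene. For Trac and Trdc no 50-base window occurred in another segment.

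The 4 gamma constant segments are shown because Tcrg-C1, Tcrg-C2 and Tcrg-C3 are near copies and Tcrg-C4 is not. Capitals mark the positions at which the 4 segments are not all the same. The stretches are the first 120 coding bases, at chr13:19214103-19214222 (plus strand), chr13:19307432-19307551 (minus), chr13:19260885-19261004 (plus) and chr13:19344558-19344677 (plus) for Tcrg-C1 to Tcrg-C4 in that order.
Tcrg-C1: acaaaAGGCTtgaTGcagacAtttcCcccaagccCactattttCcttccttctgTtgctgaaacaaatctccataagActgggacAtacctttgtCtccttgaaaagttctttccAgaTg
Tcrg-C2: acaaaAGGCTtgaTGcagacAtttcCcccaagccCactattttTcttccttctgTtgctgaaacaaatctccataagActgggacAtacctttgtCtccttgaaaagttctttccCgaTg
Tcrg-C3: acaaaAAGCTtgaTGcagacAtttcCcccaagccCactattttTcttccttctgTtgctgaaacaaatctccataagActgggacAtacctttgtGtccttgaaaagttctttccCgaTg
Tcrg-C4: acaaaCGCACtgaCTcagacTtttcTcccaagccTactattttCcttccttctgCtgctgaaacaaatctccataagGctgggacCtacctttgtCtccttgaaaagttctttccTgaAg

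Across the 330-base first coding exon Tcrg-C1 and Tcrg-C2 were 97.3% identical, and Tcrg-C1 and Tcrg-C4 82.1%. Of the 50-base windows, 29.6% of those of Tcrg-C1, 25.4% of those of Tcrg-C2 and none of those of Tcrg-C4 were shared, so counts of the first 3 gamma constant segments are less certain than those of the fourth. The sources used here do not say how reads that match several genes were counted.

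The variable segments on which the results turn are shown by their last 90 coding bases, with the codon of the conserved cysteine in capitals. They are the skin gamma segments Tcrg-V5 (chr13:19192636-19192725, plus strand) and Tcrg-V6 (chr13:19190840-19190929, plus), Trgv2 (chr13:19336573-19336662, minus), the delta segment Trdv4 (chr14:54075426-54075515, plus), and the beta segments Trbv17 (chr6:41163467-41163556, plus), Trbv13-1 (chr6:41116379-41116468, plus) and Trbv13-2 (chr6:41121743-41121832, plus).
Tcrg-V5: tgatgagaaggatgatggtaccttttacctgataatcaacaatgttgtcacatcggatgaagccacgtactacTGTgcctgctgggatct
Tcrg-V6: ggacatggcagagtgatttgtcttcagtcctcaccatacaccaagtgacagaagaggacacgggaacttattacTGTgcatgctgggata
Trgv2: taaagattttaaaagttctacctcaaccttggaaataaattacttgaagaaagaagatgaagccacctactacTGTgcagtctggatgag
Trdv4: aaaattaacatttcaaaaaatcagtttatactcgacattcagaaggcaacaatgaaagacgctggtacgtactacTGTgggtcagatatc
Trbv17: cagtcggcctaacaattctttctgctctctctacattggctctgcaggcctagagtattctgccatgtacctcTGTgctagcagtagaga
Trbv13-1: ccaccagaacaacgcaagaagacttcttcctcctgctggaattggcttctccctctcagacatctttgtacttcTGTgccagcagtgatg
Trbv13-2: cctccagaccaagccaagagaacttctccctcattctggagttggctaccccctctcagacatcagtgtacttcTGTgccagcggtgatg

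No more than 7.01% of the 50-base windows of these 7 variable segments occurred in another segment. The alpha locus is different: 45 of its 51 detected variable segments shared at least 1 window with another, and the median shared part was 45.6% among the detected and 99.0% among the 77 undetected segments. Alpha variable segments are therefore given only in sum.

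The libraries differed in ways that bear on all that follows. Ikkb_cKO libraries 1, 2 and 3 kept 977, 912 and 2324 cells, at medians of 1607, 1882.5 and 2804.5 UMIs per cell, and the WT libraries kept 3012 and 3168 cells with medians of 3578.5 and 4023.5. The CD3-positive cells numbered 118, 87 and 347 in Ikkb_cKO and 80 and 68 in WT, with median UMI counts of 1884.5, 2551 and 2566 in Ikkb_cKO and 1954 and 2069 in WT. Ikkb_cKO library 3 stood apart from libraries 1 and 2 of the same genotype in its cluster makeup, with a chi-square per degree of freedom of 32.5 and 31.9 against 2.39 between libraries 1 and 2, and keratinocyte-like cells made up 12.8% of it against 0.819% and 1.10%. The WT libraries gave 1.24 against each other. Genotype results that rest on library 3 are therefore also given without it. Several cell counts that it carries are given by library or without it, and the others are pooled over all libraries. It held 347 of the 700 CD3-positive cells. Pairs of libraries shared 0 to 17 cell barcodes, where 1.3 to 14.8 are expected from their numbers. Ikbkb, the targeted gene, was at 16, 20.5 and 15.4 CPM (UMIs scaled to the summed UMIs of the same cells of a library) in fibroblast-like cells of Ikkb_cKO and at 14.1 and 18.2 in those of WT, and the groups overlapped. In CD3-positive lymphocytes Ikbkb was at 25.9, 24.1 and 44.5 CPM in Ikkb_cKO and 72.1 and 48.4 in WT, without overlap, and was not called (log2 fold change -0.62, SE 0.42, edgeR adjusted p = 0.343). The labels do not say which exons the deletion removes, so these 3' tags need not report it.

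The CD3-positive cells fell into 4 clusters, made without the receptor segments, and their mix differed between genotypes. Clusters are called here by their leading genes. The cluster led by Areg, Il13, Il5 and Arg1, a set that includes the type 2 cytokines IL-13 and IL-5, held 60.2%, 58.6% and 31.1% of the CD3-positive cells of Ikkb_cKO and 7.5% and 8.82% of those of WT. The cluster led by Gzmc and Ccl5, a granzyme and a chemokine of cytotoxic and tissue-resident lymphocytes, held 24, 14 and 186 cells in Ikkb_cKO and 61 and 49 in WT. The cluster led by Tnfrsf4 and Ctla4, receptors of activated and regulatory T cells, held 14, 15 and 37 cells in Ikkb_cKO and 6 and 9 in WT. The fourth, led by Ccl5, Gzma and Tyrobp, held 9, 7 and 16 cells in Ikkb_cKO and 7 and 4 in WT.

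The constant segments divided the 4 clusters. Trac, the only alpha constant segment, was found in 47.3% of the 334 cells of the Gzmc cluster, 58.0% of the 81 cells of the Ctla4 cluster and 25.6% of the 43 cells of the Gzma cluster, but in 2.48% of the 242 CD3-positive cells of the Il5 and Il13 cluster. Trdc, the delta constant segment, was found in 27.2% of the Gzmc cluster, 16.3% of the Gzma cluster and 0.826% of the Il5 and Il13 cluster. In the Ctla4 cluster neither Trdc nor a gamma constant segment was found in any of 81 cells, which allows up to 3.70% of cells with such a UMI. Limits of this kind, here and below, cover counting error only: they bound the share of cells with a captured UMI, and cells that use a segment without yielding a UMI are not counted. The beta constant segments crossed this division: in the Il5 and Il13 cluster Trbc2 was found in 46.7% and Trbc1 in 29.3% of CD3-positive cells.

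No beta variable UMI was found in CD3-positive cells of the Il5 and Il13 cluster. Its 242 CD3-positive cells held 284 UMIs of Trbc1 and Trbc2 and none of the 35 beta variable segments, which allows up to 1.24% of cells with such a UMI. Any variable segment was found in 8.68% of them, against 80.8% of the Gzmc cluster and 71.6% of the Ctla4 cluster. In its 247 CD3-negative cells Trbc2 was found in 29.1%, Trbc1 in 25.1%, and Trac in none, which allows up to 1.21% of cells with a Trac UMI. Outside the lymphocytes, Trbc2 was found in 0.180% of 5568 fibroblast-like cells, at a median of 3708 UMIs per cell, and Trbc1 in none of them, which allows up to 0.0539% of cells with a Trbc1 UMI. In 354 keratinocyte-like cells, 298 of them of Ikkb_cKO library 3, Trbc2 was found in 25.7% and Trbc1 in 5.65%. Their median was 7953.5 UMIs per cell. The part of stray RNA in these counts was not tested. CD3-positive lymphocytes had a median of 2317 UMIs per cell. CD3-positive lymphocytes held 80.1% of all segment UMIs in the series and CD3-negative ones 14.2%.

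**Figure D1:**
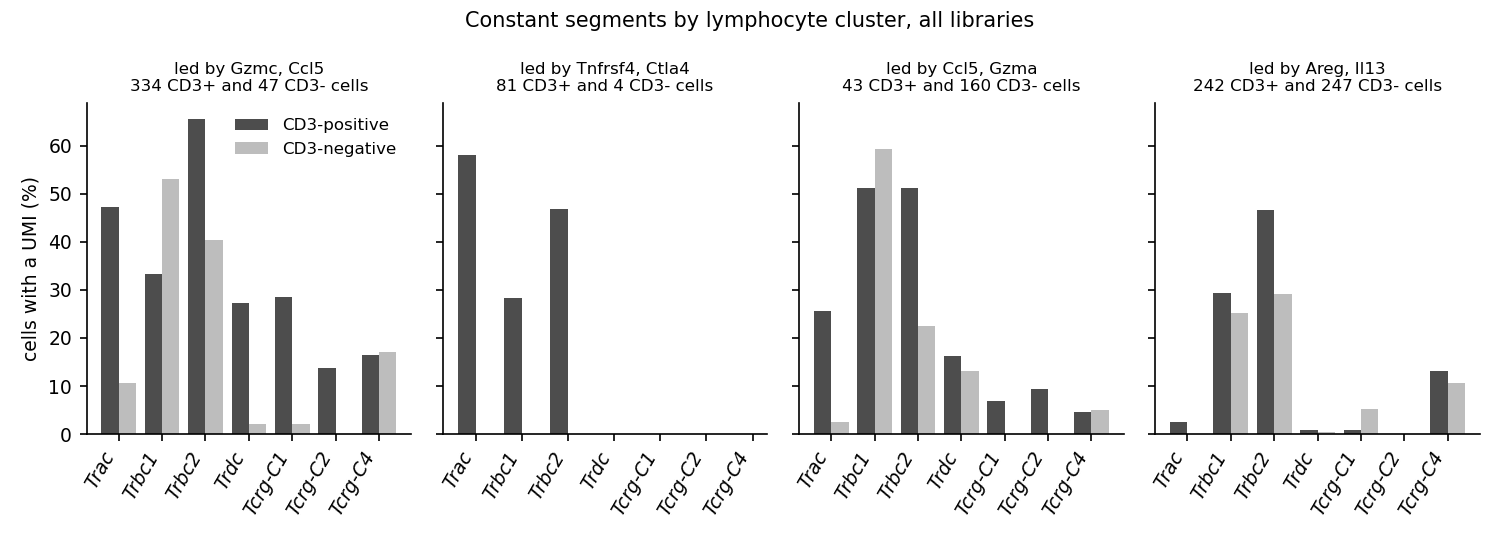
Percent of cells with at least 1 UMI of each constant segment (vertical axis) in the 4 lymphocyte clusters, all 5 libraries pooled, with dark bars for CD3-positive and light bars for CD3-negative cells. Trac and Trdc are almost absent from the cluster led by Areg and Il13, where Trbc2 reaches 46.7% of CD3-positive cells, and Tcrg-C4 is found on both sides of the CD3 gate.

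Among the 700 CD3-positive cells 206 held Trac without Trdc, 84 held Trdc without Trac, and 16 held both. A further 241 cells held a beta constant segment alone, 134 of them in the Il5 and Il13 cluster, and 153 held none of Trac, Trdc, Trbc1 and Trbc2, 100 of them in that cluster. The variable segments followed the split between Trac and Trdc. Of the 206 cells with Trac alone, 72.8% held a beta variable segment and 1.46% a delta variable segment. Of the 84 cells with Trdc alone, 69.0% held a delta and 69.0% a gamma variable segment, and 10.7% a beta variable segment. Library 3 held 116 of the cells with Trac alone and 49 of those with Trdc alone. Without it, 77.8% of the other 90 cells with Trac alone held a beta and 1.11% a delta variable segment, while of the other 35 cells with Trdc alone 51.4% held a delta, 57.1% a gamma and 14.3% a beta variable segment. Of those 35 cells, 9 were of Ikkb_cKO libraries 1 and 2, where 3 held a delta, 1 a gamma and none a beta variable segment, and 26 were of WT, where 15 held a delta, 19 a gamma and 5 a beta variable segment. The coreceptor genes Cd8a and Cd4 were found in 42 and 29 of the cells with Trac and in 1 and 1 of those with Trdc. Trbc2 was nevertheless found in 50% and Trbc1 in 31.0% of the cells with Trdc alone, so beta constant UMIs were not confined to cells with Trac.

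Cells with a variable segment mostly showed 1 per chain. Of 222 cells with a beta variable segment 90.1% held a single one, and of 107 with a delta variable segment 95.3% did. The share was 84.6% of 117 cells for alpha and 79.7% of 128 cells for gamma. Of the cells with a variable segment, library 3 held 105 for beta, 70 for delta, 63 for alpha and 75 for gamma. Few UMIs per cell stand behind these counts, so a second segment can be missed.

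The skin gamma segments Tcrg-V5 and Tcrg-V6 were found, and both in the Gzmc cluster. Tcrg-V5, the segment of epidermal T cells, was found in 20 cells, of which 19 held Trdc and 18 held Trdv4. Tcrg-V6 was found in 36 cells, of which 33 held Trdc and 33 held Trdv4. All of these cells lay in the Gzmc cluster, and none of the 366 other CD3-positive cells held either segment, which allows up to 0.820% of cells with such a UMI. By library, Tcrg-V5 was found in 0, 0 and 16 cells of Ikkb_cKO and 1 and 3 of WT, and Tcrg-V6 in 1, 0 and 20 cells of Ikkb_cKO and 10 and 5 of WT. Of the 4 Tcrg-V5 cells outside library 3, 3 held Trdc and 3 Trdv4, and of the 16 Tcrg-V6 cells outside it 15 held Trdc and 14 Trdv4. Of the 84 cells with Trdc alone, 77 lay in that cluster, 60 held Tcrg-C1 and 49 held Trdv4. Without library 3 these were 30, 22 and 14 of 35 cells. In Ikkb_cKO libraries 1 and 2 they were 4, 5 and 2 of 9 cells, and in WT 26, 17 and 12 of 26. Trdv4 was found in 86 cells in all, 64 of them with Trdc and 13 in the Il5 and Il13 cluster. Library 3 held 60 of the 86, and of the other 26 cells 18 held Trdc. Tcrg-V4, the other dermal segment, had too few UMIs to be among the named ones. It was found in 14 cells, 10 of them of library 3 and 13 in the Gzmc cluster. Of the 14, 6 held Trdc, 2 held Trdv4 and 7 held Trac.

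Trgv2, the other named gamma segment, was found beside Trac as well as Trdc. Of its 67 cells 26 held Trac and 21 held Trdc, and 62 lay in the Gzmc cluster. Library 3 held 35 of the 67, and of the other 32 cells 14 held Trac and 6 held Trdc. Trbc1 or Trbc2 was found in 53 of the 67 cells, which was not particular to Trgv2. The count was 486 of all 700 CD3-positive cells, 62 of the 86 with Trdv4 and 25 of the 36 with Tcrg-V6. Tcrg-C4 was also spread across chains: it was found in 26.2% of the cells with Trdc alone, 11.7% of those with Trac alone and 13.2% of the CD3-positive cells of the Il5 and Il13 cluster.

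CD3-positive cells were next compared with CD3-negative lymphocytes of the same libraries, a comparison in which the CD3 chains chose the cells but the receptor segments did not. Trac, Trdv4 and Trbc2 were called higher in CD3-positive cells, Trdv4 without being higher in every library, and Trbc1 was not called. Counts were summed per library and state and tested with edgeR's quasi-likelihood test with the library as a block, and p-values were adjusted by the Benjamini-Hochberg method over all genes tested. Of 6 segments that passed the low-count filter, 3 were called higher, where 1.47% of 2657 genes were called higher and 1.43% lower. A segment that is abundant only in CD3-positive cells passes this filter through them, so the count says little about the segments that did not pass. P-values here measure the spread between libraries, which may be in part technical.

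Trac was at 129, 80.5 and 289 CPM in CD3-positive cells of Ikkb_cKO libraries and 293 and 194 in those of WT, against 13.3, 10.4 and 23.7 in CD3-negative cells of Ikkb_cKO and 8.96 and 7.62 in those of WT. Every CD3-positive sum lay above every CD3-negative one. The log2 difference was 3.71 (SE 0.27, edgeR adjusted p = 1.37e-08). For Trdv4 it was 2.05 (SE 0.30, edgeR adjusted p = 0.000443) and for Trbc2 1.06 (SE 0.17, edgeR adjusted p = 0.000871). In CPM as normalized in this fit, Trdv4 was at 35.9, 14.4 and 231 in CD3-positive cells of Ikkb_cKO and 403 and 251 in those of WT. In CD3-negative cells it was at 21.2, 24.2 and 42.0 in Ikkb_cKO and 59.1 and 67.6 in WT. In Ikkb_cKO library 2 the CD3-negative sum of Trdv4 was thus the higher one.

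Trbc1 did not pass the test. It was at 225, 145 and 279 CPM in CD3-positive cells of Ikkb_cKO and 139 and 135 in those of WT, against 306, 366 and 349 in CD3-negative cells of Ikkb_cKO and 126 and 107 in those of WT. In Ikkb_cKO each CD3-negative sum was the higher of its pair, and in WT the CD3-positive one was. The log2 difference was -0.41 (SE 0.18, edgeR adjusted p = 0.373). Of 182 CD3-negative cells with Trbc1, 95 lay in the Gzma cluster, where 59.4% of 160 CD3-negative cells held it. By library this was 65.9%, 73.0% and 72.2% in Ikkb_cKO and 25.0% and 44.4% in WT. Trdv2-2, a delta variable segment, was found in 22 of those 160 cells and Trdc in 13.1%. Beside these, genes of natural killer cells in the innate list were lower in CD3-positive cells, as with Ncr1, an activating receptor (log2 difference -2.86, edgeR adjusted p = 3.03e-05), and Prf1, which encodes perforin (-2.67, edgeR adjusted p = 4.76e-06).

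Lists of genes were counted in the same fit, where 1.47% of 2657 genes were called higher and 1.43% lower. The CD3 chains chose the cells, so genes that vary with them are not independent of that choice. Of 20 genes of receptor signalling and coreceptors, 14 were tested, and 5 were higher in CD3-positive cells and none lower, with a median log2 difference of 0.49. Among them were Cd5, a receptor that damps signalling (log2 difference 5.19), Cd247, the zeta chain of the CD3 complex (1.61), Lat, the scaffold downstream of the receptor (1.5), and Cd28, the costimulatory receptor (0.80). Of 20 regulatory and helper genes 16 were tested and 4 were higher, led by Tnfrsf4 (2.79) and Ikzf2 (1.66), a transcription factor of regulatory T cells. Of 18 genes of gamma-delta T cells 7 were tested, 1 was higher (Maf, a transcription factor, 1.07) and 3 were lower, among them Klrb1c (-2.60) and Tyrobp (-2.36), which natural killer cells also express. Of 14 innate lymphoid and natural killer genes 13 were tested and 6 were lower. None of 7 recombination genes had enough UMIs to test.

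Between genotypes, 3 beta variable segments differed. Trbv17, Trbv13-1 and Trbv13-2 were lower in CD3-positive cells of Ikkb_cKO than in those of WT, and no constant segment was called. Levels are CPM over the CD3-positive cells of a library. In such sums fewer cells with a segment and fewer UMIs per cell cannot be told apart, and the cell counts are given beside them. With edgeR's quasi-likelihood test 16 of the 184 segments passed the filter and 3 were called, all lower, where 4.09% of 3542 genes were called lower and 7.57% higher. The median log2 fold change was -1.39 over these 16 segments and 0.00 over all genes tested. Without the Il5 and Il13 cluster, which had few variable segments, it was -0.58 over 16 segments and -0.0074 over all genes tested. Segments with reads mainly in 1 genotype can pass this filter through it, and the other segments had too few UMIs to be tested.

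Trbv17 was at 0, 8.05 and 34.8 CPM in Ikkb_cKO libraries 1, 2 and 3, against 597 and 760 in WT libraries 1 and 2. The groups lay far apart. The log2 fold change was -4.87 (SE 0.68, edgeR adjusted p = 0.0111). The segment was found in 11 cells of Ikkb_cKO, with 38 UMIs, and in 18 of WT, with 273. The median over cells with the segment was 3 UMIs in Ikkb_cKO and 13.5 in WT, and 2 cells of Ikkb_cKO held over 5 UMIs against 15 of WT. Among cells with any beta variable segment, Trbv17 was found in 0 of 19, 2 of 16 and 9 of 105 in Ikkb_cKO and in 9 of 44 and 9 of 38 in WT. The 0 of 19 allows up to 15.8% of cells with a Trbv17 UMI. Its part of all beta variable UMIs was 0%, 6.67% and 12.4% in Ikkb_cKO and 43.9% and 46.6% in WT.

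Trbv13-1 was at 14.8, 4.02 and 4.83 CPM in Ikkb_cKO and 201 and 213 in WT, without overlap. The log2 fold change was -4.73 (SE 0.44, edgeR adjusted p = 0.000303). It rested on few cells, 5 in Ikkb_cKO and 9 in WT, and a single WT cell held 42 of the 83 WT UMIs. Without that cell WT held 41 UMIs against 10 in Ikkb_cKO. The cell was 1 of 2 with the segment in WT library 2, which held 44 UMIs, so that library's value rests on it. Among cells with any beta variable segment, Trbv13-1 was found in 2 of 19, 1 of 16 and 2 of 105 in Ikkb_cKO. In WT it was found in 7 of 44 and 2 of 38, and these shares overlapped. The part of Trbv13-1 in all beta variable UMIs was 8.70%, 3.33% and 1.72% in Ikkb_cKO and 14.8% and 13.1% in WT, without overlap. Trbv13-2, its neighbour in the same family, was at 11.1, 8.05 and 30.9 CPM in Ikkb_cKO and 87.5 and 165 in WT, without overlap, with a log2 fold change of -2.40 (SE 0.48, edgeR adjusted p = 0.00959). It was found in 17 cells of Ikkb_cKO and 21 of WT, but its part of all beta variable UMIs, at 6.52%, 6.67% and 11% in Ikkb_cKO and 6.44% and 10.1% in WT, overlapped between genotypes.

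Trbv1 was at 25.9, 32.2 and 14.5 CPM in Ikkb_cKO and 25.7 and 208 in WT, and the second WT value came from 4 cells, 1 of them with 18 UMIs. The other 7 named beta segments (Trbv12-2, Trbv15, Trbv16, Trbv29, Trbv14, Trbv3 and Trbv20) were found in 7 to 13 cells of Ikkb_cKO and 2 to 8 of WT. For each of the 7, the part of beta variable UMIs overlapped between genotypes, as the plot of segment use shows. Of these segments Trbv12-2 (log2 fold change -1.70, edgeR adjusted p = 0.145) and Trbv15 (-1.62, edgeR adjusted p = 0.106) were tested and not called.

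**Figure D2:**
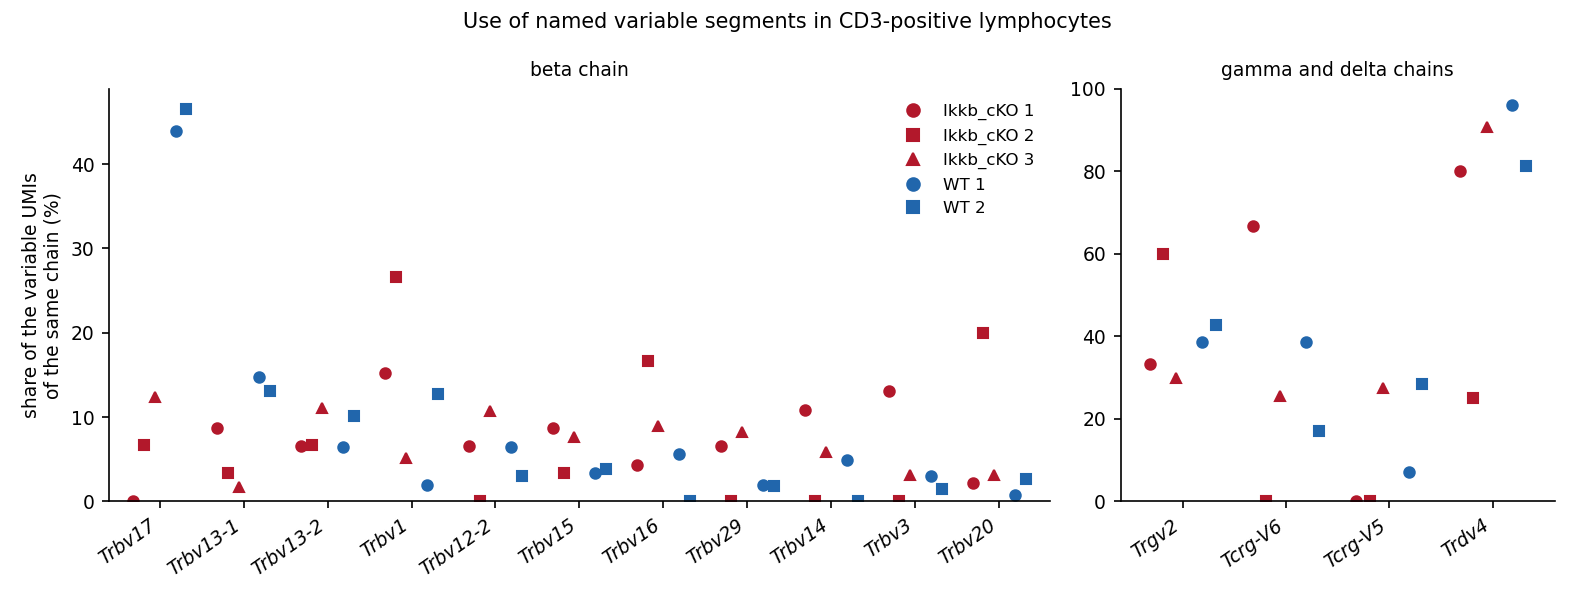
Part of each chain's variable UMIs (percent, vertical axis) that came from each of the 15 named variable segments, by library; red symbols are Ikkb_cKO libraries 1 to 3 and blue symbols WT libraries 1 and 2. Trbv17 makes up 43.9% and 46.6% in WT and at most 12.4% in Ikkb_cKO, while the gamma and delta segments overlap; Ikkb_cKO libraries 1 and 2 rest on 3 and 5 gamma variable UMIs.

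Variable segments as a whole were a smaller part of the receptor transcripts in Ikkb_cKO. The variable part of all receptor UMIs, variable over variable plus constant, was 21.7%, 26.8% and 33.8% in Ikkb_cKO and 63.6% and 69.2% in WT. The means were 27.4% ± 6.10 in Ikkb_cKO (SD, n = 3) and 66.4% ± 3.90 in WT (SD, n = 2), with exact two-sided permutation p = 0.1, the smallest that 3 against 2 libraries can give. All 3 Ikkb_cKO libraries lay below both WT libraries in each of the 4 chains. For beta the values were 20.4%, 19.9% and 28.9% in Ikkb_cKO and 71.4% and 74.2% in WT, and for alpha 22.2%, 39.4% and 28.5% in Ikkb_cKO and 48.2% and 55.6% in WT. For gamma they were 10.3%, 23.8% and 35.2% in Ikkb_cKO and 50.4% and 61.4% in WT. For delta they were 52.6%, 63.2% and 47.7% in Ikkb_cKO and 66.7% and 67.0% in WT. Ikkb_cKO libraries 1 and 2 held few variable UMIs: 10 and 13 for alpha, 3 and 5 for gamma, and 10 and 12 for delta. Their delta constant UMIs numbered 9 and 7, so the parts of single chains are imprecise in these libraries, for delta above all. This measure was chosen after its values were seen.

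The gap was also present inside clusters. In the Gzmc cluster alone the variable part was 32.8%, 38.2% and 35.5% in Ikkb_cKO and 62.7% and 71.9% in WT, and in the Ctla4 cluster 29.9%, 44.6% and 44.0% in Ikkb_cKO and 71.4% and 80.4% in WT. Only the small Gzma cluster overlapped, at 14.3%, 12.0% and 28.4% in Ikkb_cKO and 74.2% and 27.1% in WT. Cells with a variable UMI held 2.38, 2.40 and 4.00 of them on average in Ikkb_cKO and 7.38 and 9.56 in WT, while cells with a constant UMI held 2.90, 2.56 and 5.31 constant UMIs in Ikkb_cKO and 3.95 and 4.11 in WT. The variable count per cell separated the genotypes and the constant count did not. Every library has 1 genotype, so genotype and the making of a library cannot be told apart here, and how far the lower Trbv17, Trbv13-1 and Trbv13-2 go with this shift was not tested.

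**Figure D3:**
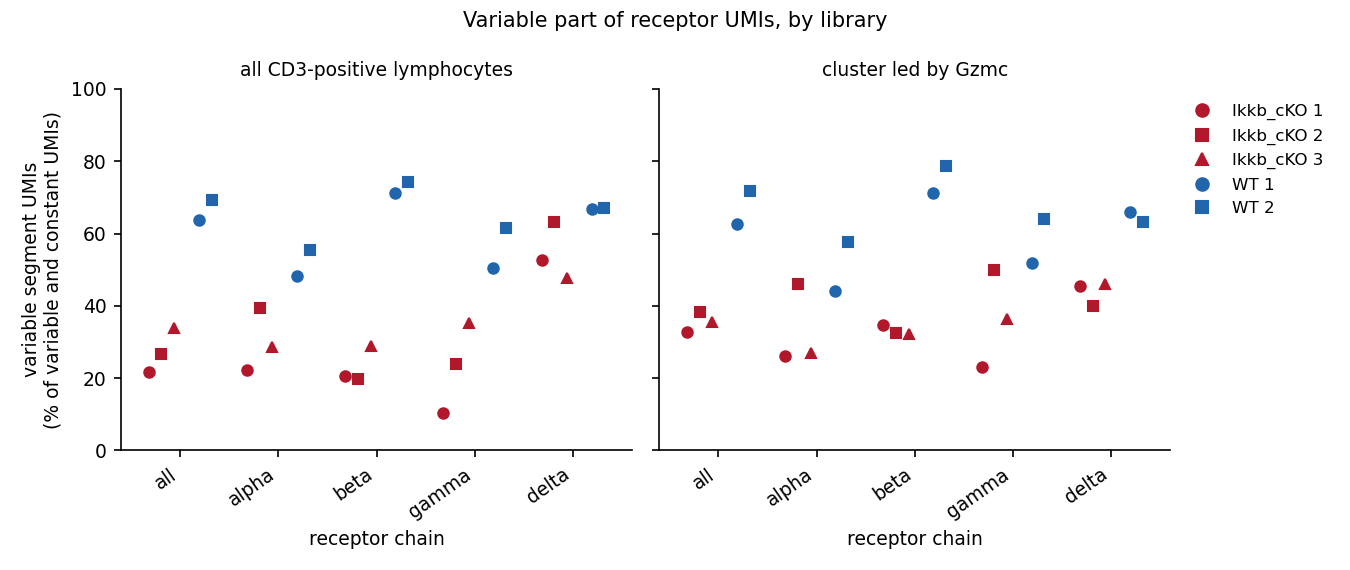
Variable segment UMIs as a percent of variable and constant UMIs (vertical axis), for all chains together and for each chain, in all CD3-positive lymphocytes (left panel) and in the cluster led by Gzmc (right panel); each symbol is a library, red for Ikkb_cKO and blue for WT. For all chains together the Ikkb_cKO libraries lie between 21.7% and 33.8% in the left panel and the WT libraries at 63.6% and 69.2%.

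The constant segments overlapped between genotypes or differed by less than the test could call. Trbc2, the most abundant, was at 436, 342 and 411 CPM in Ikkb_cKO and 407 and 431 in WT, a log2 fold change of 0.10 (SE 0.21, edgeR adjusted p = 0.789). Trbc1 was at 225, 145 and 279 in Ikkb_cKO and 139 and 135 in WT. All 3 Ikkb_cKO values were the higher ones, but the log2 fold change of 0.86 (SE 0.31) was not called (edgeR adjusted p = 0.0893). Without the Il5 and Il13 cluster it was 1.29 and was called (edgeR adjusted p = 0.0425), and the same 3 beta variable segments were called lower.

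Trdc was at 33.2, 28.2 and 241 CPM in Ikkb_cKO and 196 and 140 in WT. Ikkb_cKO libraries 1 and 2 were low and library 3 was above both WT libraries. The log2 fold change was -0.36 (SE 1.06, edgeR adjusted p = 0.856), and without library 3 it was -2.21 (edgeR adjusted p = 0.000386). In Trac, Tcrg-C1 and Tcrg-C2 too, libraries 1 and 2 lay below both WT libraries and library 3 did not, with Tcrg-C1 at 33.2, 16.1 and 159 CPM in Ikkb_cKO and 124 and 91.9 in WT. Tcrg-C4 was at 59.1, 44.3 and 67.7 in Ikkb_cKO and 87.5 and 82.3 in WT, which did not overlap, with a log2 fold change of -0.35 (SE 0.34, edgeR adjusted p = 0.504). Tcrg-C3 had 1 UMI in all.

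**Figure D4:**
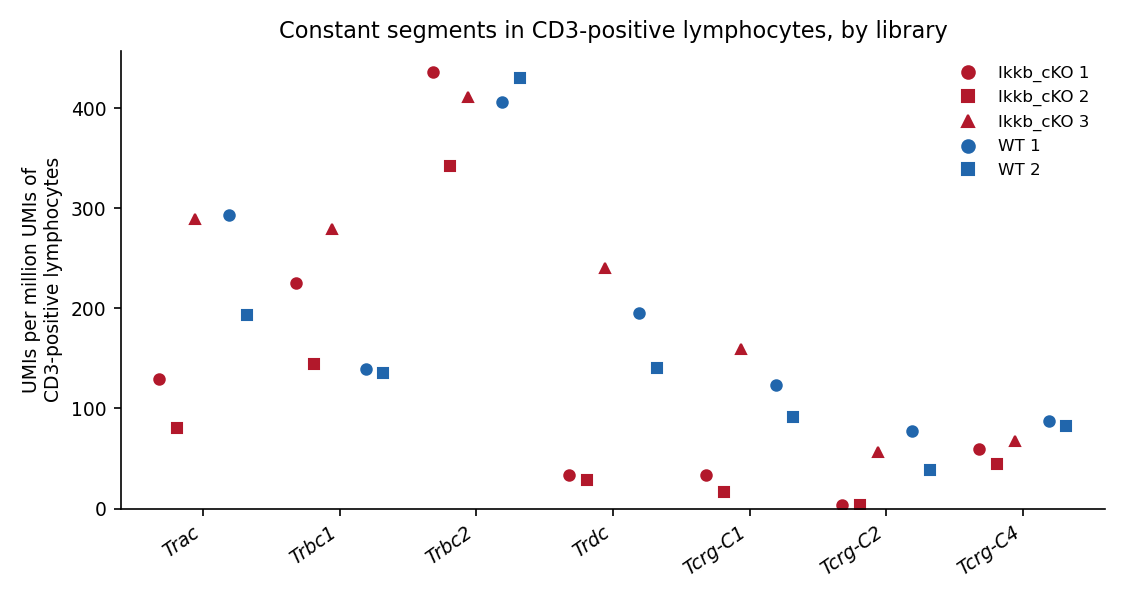
CPM, scaled to the summed UMIs of the CD3-positive lymphocytes of a library (vertical axis), for 7 constant segments; each symbol is a library, red for Ikkb_cKO and blue for WT. Ikkb_cKO library 3 lies with or above the WT libraries for Trac, Trdc and Tcrg-C1, and libraries 1 and 2 lie below them.

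The gamma and delta variable segments also turned on library 3. Trdv4 was at 29.5, 12.1 and 199 CPM in Ikkb_cKO and 376 and 232 in WT, without overlap, and its log2 fold change of -1.5 (SE 1.09) was not called (edgeR adjusted p = 0.430). Without library 3 it was -3.60 (edgeR adjusted p = 1.16e-05). Tcrg-V6 was at 7.39, 0 and 39.6 in Ikkb_cKO and 113 and 58.1 in WT, and Tcrg-V5 at 0, 0 and 42.5 in Ikkb_cKO and 20.6 and 96.8 in WT. The 0 UMIs of Tcrg-V5 allow up to 2.54% of cells with such a UMI in Ikkb_cKO library 1 and 3.45% in library 2. Tcrg-V6 lay without overlap and Tcrg-V5 with it, and neither was called (log2 fold changes -1.73 and -1.28, edgeR adjusted p = 0.205 and 0.542). Trgv2, at 3.69, 12.1 and 46.4 in Ikkb_cKO and 113 and 145 in WT, also lay without overlap and missed the threshold, with -2.04 (SE 0.59, edgeR adjusted p = 0.0564).

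Without Ikkb_cKO library 3, 11 of 14 tested segments were called lower and none higher, against 3 of 16 with it. Calls were also more frequent over all genes in that fit, where 10.2% of 3057 were called lower and 14.9% higher. The 11 were the 3 beta segments named above, Trbv12-2, Trbv15, Trdv4, Tcrg-V6, Trgv2, Trdc, Trac and Tcrg-C1. Without WT library 2 only Trbv13-1 was called; Trbv17 then had an edgeR adjusted p of 0.139 and Trbv13-2 of 0.209, and without WT library 1 Trbv17 had 0.0844. Trbv13-1 was called under each of 18 alternative settings, none of which left out by itself the WT cell that held 42 of its UMIs.

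**Figure D5:**
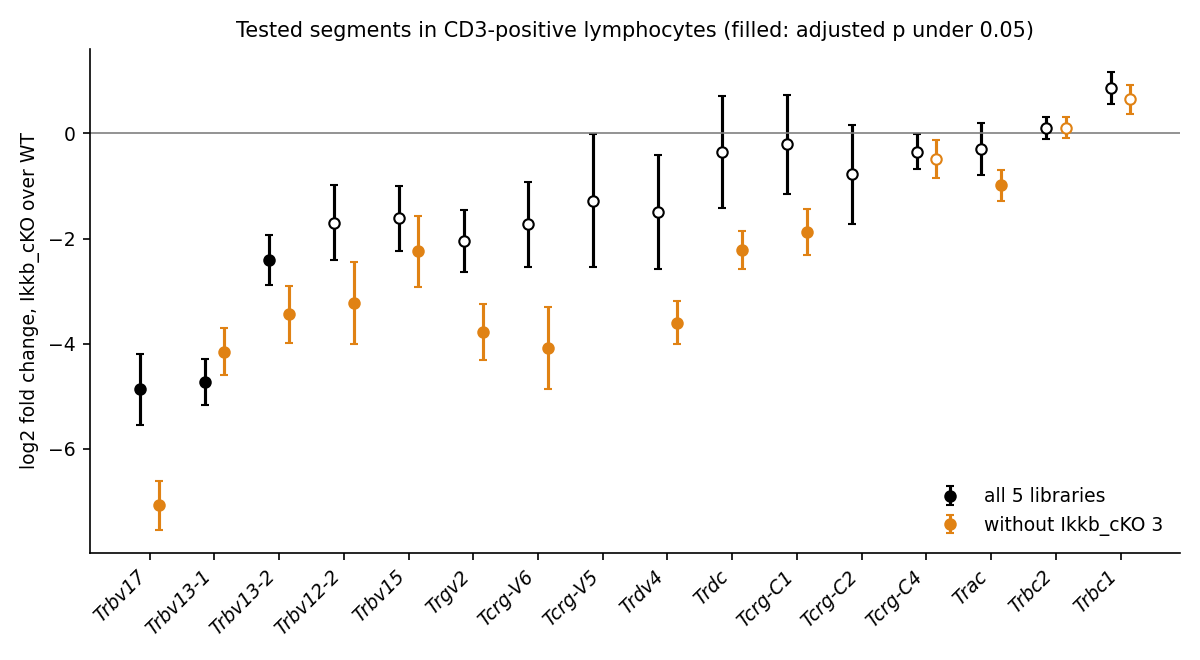
Log2 fold change of Ikkb_cKO over WT (vertical axis, bars 1 SE) for the 16 tested segments in CD3-positive lymphocytes, with all 5 libraries (black) and without Ikkb_cKO library 3 (orange); filled symbols have an edgeR adjusted p under 0.05. Trbv17, Trbv13-1 and Trbv13-2 are called in both, and Trdv4 lies at -1.5 with all libraries and at -3.60 without library 3.

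Cells were also counted. Trdc was found in 5.08% (exact 95% interval 1.89 to 10.7), 5.75% (1.89 to 12.9) and 17.3% (13.5 to 21.7) of CD3-positive cells in Ikkb_cKO, and in 18.8% (10.9 to 29.0) and 20.6% (11.7 to 32.1) in WT. The intervals cover counting error only. The means were 9.37% ± 6.86 in Ikkb_cKO (SD, n = 3) and 19.7% ± 1.3 in WT (SD, n = 2), and the exact two-sided permutation p was 0.2. Without the Il5 and Il13 cluster, in which Trdc is rare, the shares were 10.6%, 11.1% and 25.1% in Ikkb_cKO and 20.3% and 22.6% in WT, which overlapped (exact permutation p = 0.4).

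Trac, Trbc1 or Trbc2 was found in 70.3%, 69.0% and 78.1% of CD3-positive cells in Ikkb_cKO and 70.0% and 72.1% in WT, with overlap (difference 1.44 percentage points, exact permutation p = 0.9). Without the Il5 and Il13 cluster the difference was 11.8 percentage points (exact permutation p = 0.1). Any variable segment was found in 24.6%, 28.7% and 57.3% of cells in Ikkb_cKO and 76.3% and 79.4% in WT, without overlap (exact permutation p = 0.2). Without the Il5 and Il13 cluster these shares lay closer together, at 51.1%, 63.9% and 78.2% in Ikkb_cKO and 81.1% and 85.5% in WT, without overlap. After each cell of all 4 clusters was thinned to 1000 UMIs the shares were 17.8%, 17.3% and 42.0% in Ikkb_cKO and 58.7% and 70.3% in WT, still without overlap. Thinning left out 17, 6 and 16 shallower cells of Ikkb_cKO and 5 and 4 of WT. The gamma and delta part of all variable UMIs was 18.8%, 28.3% and 48.6% in Ikkb_cKO and 29.6% and 25.0% in WT, with overlap (exact permutation p = 0.9).

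Lists of genes around the receptor were counted in the same fit between genotypes, where 4.09% of 3542 genes were called lower and 7.57% higher. Of 20 genes of receptor signalling and coreceptors 18 were tested, 3 were lower in Ikkb_cKO and none higher, with a median log2 fold change of -0.31. These were Lck, the kinase that starts receptor signalling (-1.70, edgeR adjusted p = 0.00420), Lat (-1.15, edgeR adjusted p = 0.00594) and Cd8b1, a chain of the CD8 coreceptor (-2.11, edgeR adjusted p = 0.0125). Of 20 regulatory and helper genes 18 were tested, 6 were higher and none lower, among them Il4, a type 2 cytokine (5.08, edgeR adjusted p = 0.00117), Gata3, the transcription factor of type 2 lymphocytes (2.88, edgeR adjusted p = 0.00193), Il1rl1, the IL-33 receptor (4.34, edgeR adjusted p = 0.00384), and Il2ra, the IL-2 receptor alpha chain (2.53, edgeR adjusted p = 0.00378).

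Of 14 innate lymphoid and natural killer genes 11 were tested and 3 were higher: Hlf (4.11, edgeR adjusted p = 0.000453), Kit (3.41, edgeR adjusted p = 0.00288) and Il7r, the IL-7 receptor (0.82, edgeR adjusted p = 0.0386). Of 18 genes of gamma-delta T cells 9 were tested, 1 was higher (Maf, 1.31, edgeR adjusted p = 0.0130) and 1 lower (Cd27, -1.11, edgeR adjusted p = 0.0481), too few to set apart from the shares over all genes. Cd3d, which helped choose the cells, was itself lower by 1.43 on the log2 scale (edgeR adjusted p = 0.0144). The other chains that chose them, Cd3e (-1.26, edgeR adjusted p = 0.242) and Cd3g (-0.40, edgeR adjusted p = 0.174), were not called. The CD3 chains behind the choice thus did not differ alike between genotypes, and the effect on the cells chosen was not tested. These lists were chosen with results of these data known, and the part that the larger Il5 and Il13 cluster of Ikkb_cKO plays in their counts was not tested.

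Last, the genotype effect was compared between CD3-positive and CD3-negative lymphocytes. Of 15 segments tested 1 passed, Tcrg-C1, with an interaction of 4.39 on the log2 scale (SE 0.96, edgeR adjusted p = 0.0469), where 0.323% of 3719 genes were called in that direction and 0.108% in the other. In CD3-positive cells Tcrg-C1 overlapped between genotypes, as given above, and in CD3-negative cells it was at 8.88, 0 and 0 CPM in Ikkb_cKO and 71.7 and 53.4 in WT. In the Il5 and Il13 cluster Tcrg-C1 was found in 1 of 207 CD3-negative cells of Ikkb_cKO and 12 of 40 of WT. By library this was 1.45%, 0% and 0% in Ikkb_cKO and 35% and 25.0% in WT, and the 0 counts allow up to 5.77% and 3.49% of cells with a Tcrg-C1 UMI. In CD3-positive cells of that cluster it was found in 0 of 230 cells of Ikkb_cKO and 2 of 12 of WT, both of WT library 1, so its share was the smaller one in Ikkb_cKO in both CD3 states there, which was not tested. The median depth of those libraries' CD3-negative cells was 1616, 1790 and 2451 UMIs in Ikkb_cKO and 2085 and 2706.5 in WT. Without that cluster the interaction was -1.3, and it was called in 8 of 16 alternative settings. Without Ikkb_cKO library 3 Tcrg-C1 was at 1.54 and not called, and Trdc was called in the other direction (-3.93, edgeR adjusted p = 0.0229).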

How the data were processed

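Cell barcode matrices of 5 libraries were used, 3 Ikkb_cKO and 2 WT, each a pool of 2 mice. The deposited values are raw UMI counts per gene and barcode. Reads were aligned to mm10 and counted with Cell Ranger 1.3.0, per the submitters' processing notes. The matrices name software 3.0.1 and format 2, per the file headers. Total UMI counts were 2163166, 2350022 and 9738296 in Ikkb_cKO and 14659158 and 16773096 in WT.

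Barcodes under 300 genes or over 10% mitochondrial UMIs were dropped. Scrublet's automatic threshold marked 0.352% of the 11084 barcodes, so the top-scoring barcodes up to an expected rate of 0.008 per 1000 cells were removed instead (2.17%), and 10393 cells remained. They were scaled to 10000 counts, reduced to 2000 variable genes without the receptor segments and 30 principal components, joined to 15 neighbours and clustered by the Leiden method at resolution 1 (scanpy 1.11.5). A cluster was named from its marker list when at least 3 markers stood among its 50 leading genes, with a lead of 2. Summed counts were tested with edgeR 4.0.16 (TMM, filterByExpr, robust quasi-likelihood, Benjamini-Hochberg over all tested genes, threshold 0.05), after the step was tested on simulated data. Single values were tested by exact two-sided permutation of the genotype labels, with 10 arrangements. DESeq2 1.42.0 served as an alternative, beside other filters, scalings, clusterings and left-out libraries. Levels are plain CPM, computed from the deposited counts.

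All constant segments and the 15 variable segments with the most UMIs were named. The members, lists and tests were chosen with earlier results of these data known. Leaving out the Il5 and Il13 cluster, the automatic doublet threshold and the variable part of receptor UMIs were added after the data were seen.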

Additional observations from a re-analysis of the deposited data

Results flagged for a closer look

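Tcrg-C1, a gamma constant segment, had an effect of genotype that differed between CD3-positive and CD3-negative lymphocytes, with an interaction of 4.39 on the log2 scale (SE 0.96, edgeR adjusted p = 0.0469). It rested on 2, 0 and 0 UMIs in CD3-negative cells of Ikkb_cKO and 8 and 7 in those of WT. In the Il5 and Il13 cluster Tcrg-C1 was found in 0 of 230 CD3-positive cells of Ikkb_cKO and 2 of 12 of WT, and in 1 of 207 CD3-negative cells of Ikkb_cKO and 12 of 40 of WT. The share was the smaller one in Ikkb_cKO in both states, which was not tested within the cluster. DESeq2's Wald test gave 3.79 with an adjusted p of 1.00.

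Trbc2 was found in 25.7% of 354 keratinocyte-like cells, a class outside the comparisons. By library the share was 0% of 8, 10.0% of 10 and 26.5% of 298 cells in Ikkb_cKO. In WT it was 35.7% of 14 and 25.0% of 24 cells, so Trbc2 was present in both genotypes. Most cells of the class thus came from Ikkb_cKO library 3. Trbc1 was found in 5.65% of the 354 cells, none of them of WT, Trac in 1.13% and any CD3 chain in 0.565%. Trdc and every variable segment were at 0, which allows up to 0.847% of cells with such a UMI, covering counting error only. The pan-leukocyte gene Ptprc was found in 0.565%. The median depth was 7953.5 UMIs per cell, against 2317 in CD3-positive lymphocytes. In fibroblast-like cells, at a median of 3708 UMIs, Trbc2 was found in 0.180%. Within the class, Trbc2 was found in 41.7% of the cluster led by Lgals7, Krt77 and Krtdap and in 12.0% of the one led by Lgals7, Krt17 and Krt25.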

How the results depend on the processing

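Segments called between genotypes numbered 3, and 11 with no low-count filter, 13 with the replicate number as a block, 5 over CD3-positive cells of every cluster, and 1 to 11 with 1 library left out. For all genes, 413 calls became 261 with DESeq2's Wald test, 924 with the block, 136 without the Il5 and Il13 cluster and 57 to 769 with 1 library left out. Deviations of log CPM from the genotype means correlated at 0.0639 and 0.0103 between libraries numbered 1 and between those numbered 2. The deviations of the 2 WT libraries mirror each other, so these values cannot decide whether the numbers pair the libraries. Replicate number 3 occurs only in Ikkb_cKO, so with the block that library does not enter the genotype contrast. Between CD3 states, 3 segments became 20 and 77 genes became 209 without the filter, and 2 to 3 segments and 62 to 77 genes with 1 library left out. For the interaction, 1 segment became 0 with the Wald test, stricter cell filters, the automatic doublet threshold, at least 2 CD3 UMIs or without the Il5 and Il13 cluster, and 0 to 1 with 1 library left out, where the 1 called without Ikkb_cKO library 3 was Trdc, at -3.93, not Tcrg-C1. Its 16 genes became 43 without the filter, 8 with at least 2 CD3 UMIs, 3 without that cluster and 6 to 47 with 1 library left out.

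The genotype difference in the share with Trac, Trbc1 or Trbc2 (1.44 percentage points) was -0.51 with stricter cell filters, -4.21 after thinning and -1.38 to 3.19 with 1 library left out. The difference in the gamma and delta part (4.65) was -5.69 after thinning and -3.69 to 11.2. With 1 library left out the difference was -14.3 to -8.15 for Trdc, -51.2 to -34.8 for any variable segment and -42.2 to -36.1 for the variable part. The Trac share was 6.01 points higher in Ikkb_cKO without the Il5 and Il13 cluster. Log2 fold changes between genotypes that changed sign with 1 library left out were those of Tcrg-C1 (-1.87 to 0.17), Tcrg-V5 (-1.98 to 0.063), Trac (-0.99 to 0.039) and Trdc (-2.21 to 0.015). Without the Il5 and Il13 cluster Tcrg-C1 was at 0.63, Trac at 0.51 and Trdc at 0.31, and with at least 2 CD3 UMIs Tcrg-C1 was at 0.056. The interaction of Tcrg-C1 was -1.30 without that cluster. The causes were not tested. With 60 to 796 variable UMIs per library, segments under about 10 UMIs could not be compared.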
